A study of Mus musculus with 24 samples.

Results

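The YAP pathway was followed through 8 genes in dorsal root ganglia, which house the cell bodies of the sensory neurons that feed the sciatic nerve. The genes were chosen by symbol: the targets Ankrd1, Ctgf and Cyr61, the inhibitors Amotl2 and Lats2, the coactivators Yap1 and Wwtr1 (TAZ), and their DNA-binding partner Tead1. They are 8 of the 24421 gene symbols of the RNA-seq table and 8 of the 24411 of the MeRIP-seq table, and all 8 passed the filter on low counts in both tables.

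All tissue was L4/5 ganglia of C57BL/6 mice. RNA-seq covered 4 groups of 3 libraries: wild type naive, wild type SNLD1 (day 1 after the sciatic nerve injury), Mettl14cKO naive and Mettl14cKO SNLD1. Titles name the mutant Mettl14cKO and the genotype label gives Mettl14-/-. The promoter or Cre line behind the deletion is not given in the sources used here. MeRIP-seq, which counts RNA pulled down by an antibody against N6-methyladenosine (m6A) beside input RNA, was done in wild type, with 3 pulldown (IP) and 2 input libraries at naive and at SNLD1. miCLIP, which places m6A at single bases by mutations that the crosslinked antibody leaves in reads, was done in 1 wild-type library titled naive and 1 titled SNL, for which no day is given. The treatment label of every library names both a sham operation and a crush, so whether the naive mice were operated is not settled by the labels.

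YAP and TAZ are transcriptional coactivators without a DNA-binding domain of their own. The Hippo kinases LATS1 and LATS2 phosphorylate them and keep them in the cytoplasm, and angiomotin-family proteins such as AMOTL2 bind and restrain them. In the nucleus they pair with TEAD factors on target genes such as Ctgf, Cyr61 and Ankrd1. METTL14, the protein whose gene the mutant label names, is a core subunit of the m6A writer complex.

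Promoter sequences are shown first for the letters GGAATG, the core motif that TEAD factors are known to recognise. RefSeq promoter windows (GRCm38.p6, the 250 bases before a start site) were found for 6 of the 8 genes, in 8 windows, and not for Ctgf or Tead1. The windows of the targets Ankrd1 (chr19:36119845-36120094, minus strand) and Cyr61 (chr3:145649986-145650235, minus strand) and of the inhibitor Amotl2 (chr9:102717554-102717803, plus strand) read, 5′ to 3′ along the gene, with each GGAATG or its reverse complement CATTCC in capitals:
Ankrd1: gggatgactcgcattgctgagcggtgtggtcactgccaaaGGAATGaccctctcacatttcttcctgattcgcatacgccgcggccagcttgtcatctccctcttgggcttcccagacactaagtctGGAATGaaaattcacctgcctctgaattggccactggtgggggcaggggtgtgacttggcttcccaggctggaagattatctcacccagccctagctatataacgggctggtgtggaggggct
Cyr61: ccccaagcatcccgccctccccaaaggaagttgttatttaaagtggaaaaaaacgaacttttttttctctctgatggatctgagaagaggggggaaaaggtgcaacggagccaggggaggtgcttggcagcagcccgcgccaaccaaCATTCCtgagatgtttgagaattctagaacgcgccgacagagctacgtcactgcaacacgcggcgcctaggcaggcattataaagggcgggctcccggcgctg
Amotl2: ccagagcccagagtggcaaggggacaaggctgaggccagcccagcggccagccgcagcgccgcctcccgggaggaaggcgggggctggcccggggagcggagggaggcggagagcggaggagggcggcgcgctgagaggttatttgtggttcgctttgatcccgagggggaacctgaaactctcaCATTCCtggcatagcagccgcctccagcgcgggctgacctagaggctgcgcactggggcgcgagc
Ankrd1 held 2 matches, both as GGAATG, whose first bases lie 210 and 123 bases before the start. Cyr61 held 1 match, as CATTCC, at 103 bases, and Amotl2 held 1, also as CATTCC, at 65 bases. The Amotl2 window lies inside the gene span (chr9:102717091-102733418), so its start site is downstream of the first base of the span. Yap1 had a match at 141 bases. Wwtr1 had 1 match, seen at 136 and at 170 bases in its 2 overlapping windows. Lats2 had none in either window, and its window 2 also lies inside its gene span. In all, 5 of the 6 genes held the letters, and 12.6% of all 32851 windows of the same length did. These shares differ in unit, genes against single windows, since Wwtr1 and Lats2 have 2 windows each. The genes were also chosen as pathway members. The AP-1 motif TGANTCA, read on both strands, was in none of these 8 windows and in 6.75% of all windows. A match gives letters only and shows no binding.

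Libraries held between 5707837 and 12639160 counts in RNA-seq and between 846785 and 19653733 in MeRIP-seq, where 3 libraries were far smaller than the rest: naive IP 2 (846785), SNLD1 input 1 (927807) and SNLD1 IP 2 (1534778). Levels are given in CPM, read counts per 1000000 of the TMM-scaled library total, and libraries are listed in the order 1, 2, 3. Mettl14 was below every wild-type library in every mutant library, at 14.2 to 18.9 against 19.4 to 24.1 CPM. Its change averaged over conditions was -0.46 on the log2 scale (SE 0.12, adjusted p = 0.0450 by edgeR's quasi-likelihood test), so the transcript was lower and still present. That call ended without the filter on low counts (adjusted p = 0.0766) and when any library but Mettl14cKO naive 2 was left out (adjusted p 0.0606 to 0.142). Markers of sensory neurons were high in every library, with the sum of 8 genes between 6429 and 9181 CPM. In naive Mettl14cKO 2 of these 8 neuronal genes were higher than in wild type and 1 was called lower by edgeR (median log2 -0.20). At SNLD1 2 were higher and 2 called lower (median -0.15). Of all genes 0.113% and 0.512% were called lower there. Averaged over conditions 1 was higher and 1 called lower (median -0.20), against 1.29% of all genes. The part of these neuronal markers in genotype differences was not tested. No gene of any marker list was at 0 throughout a group. A lower level in bulk ganglia can come from fewer cells of a type or from less RNA per cell, which cannot be told apart here.

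**Figure D1:**
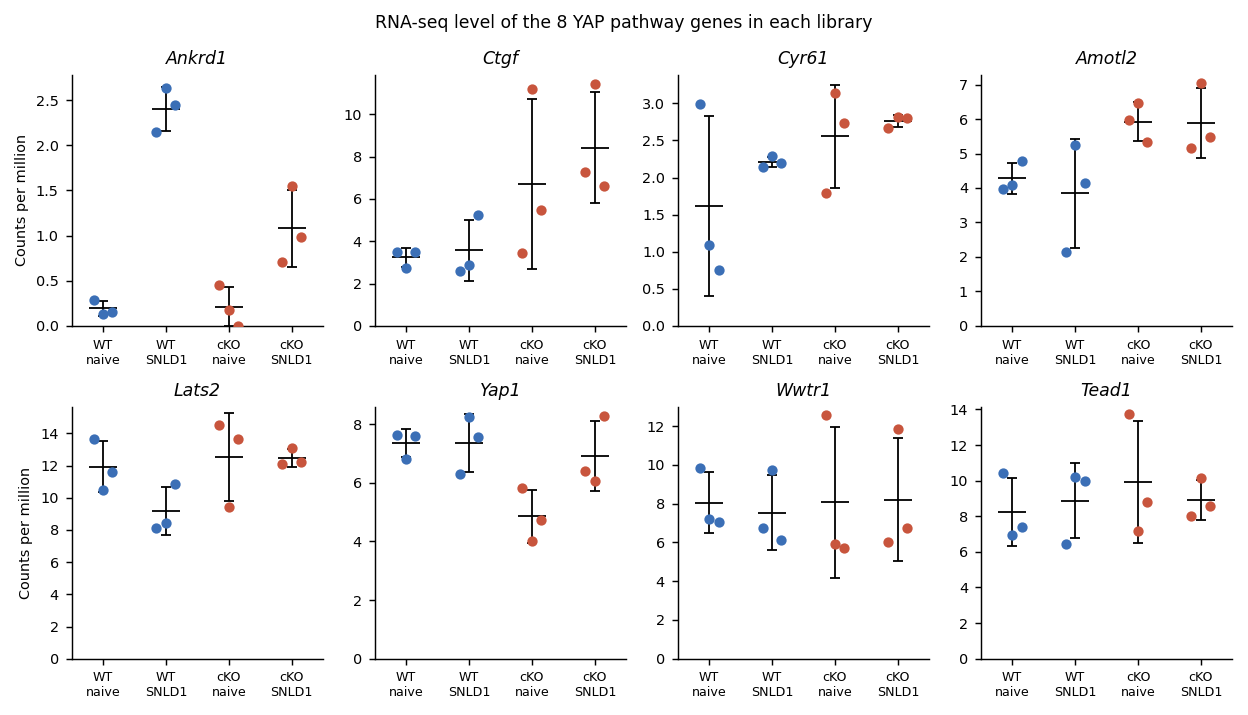
RNA-seq level of each of the 8 genes in CPM. Points are libraries (blue wild type, red Mettl14cKO), bars are the mean ± SD of 3 libraries, and each panel has its own axis from 0; Ankrd1 at SNLD1 stands above naive in both genotypes, while Ctgf is higher in most Mettl14cKO libraries, with overlap in naive ganglia.

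Ankrd1 was the member that responded to the lesion. It encodes the cardiac ankyrin repeat protein, known from stretched and injured muscle as well as a YAP target. In wild type its level was 0.29, 0.14 and 0.15 CPM in naive ganglia and 2.15, 2.63 and 2.44 CPM at SNLD1. The groups did not overlap, and the naive values rest on 3, 1 and 2 reads against 14, 23 and 20 after the lesion. The log2 change was 3.53 (SE 0.70, 95% interval 2.05 to 5.01, adjusted p = 0.00388 by edgeR's quasi-likelihood test). As a ratio of summed counts this was a 12.5-fold rise, from 6 to 57 reads, with an exact 95% interval of 5.395 to 35.43 that covers counting error only. Without naive library 3 the change was 3.33 and the call ended (adjusted p = 0.0517).

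Among the 8 genes Ankrd1 was the 1 called higher after the lesion in wild type, where 0.948% of the 13291 genes tested were called higher. A called gene is one with an adjusted p under 0.05. It was also the 1 member whose SNLD1 libraries all stood above the naive ones, which was so for 6.08% of all genes. Ankrd1 passed the filter on low counts through its lesioned wild-type libraries, and no other RNA-seq group had more than 11 reads in any library. The group where it is high thus placed it among the tested genes, so these shares are no separate support.

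In Mettl14cKO the naive levels of Ankrd1 were 0.45, 0.17 and 0.00 CPM and the SNLD1 levels 0.71, 1.55 and 0.98 CPM. The count of 0 in naive library 3 allows a level up to 0.372 CPM. Every lesioned library was again above every naive one, with 4, 11 and 7 reads against 3, 1 and 0. The log2 change was 2.39 (SE 0.84, 95% interval 0.61 to 4.16), with an unadjusted p of 0.00440 and an adjusted p of 0.182 by edgeR, so it was not called. Summed counts went from 4 to 22, a ratio of 5.67 (1.93 to 22.6). Averaged over genotypes the log2 change was 2.96 (SE 0.55, adjusted p = 0.00124 by edgeR), 1 of 8 members called higher against 2.02% of all genes.

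Lesioned Mettl14cKO libraries held less Ankrd1 than lesioned wild-type ones, 0.71 to 1.55 against 2.15 to 2.63 CPM, with no overlap. The difference was -1.13 on the log2 scale (SE 0.50, 95% interval -2.19 to -0.07) and was not called (adjusted p = 0.299 by edgeR). The ratio of summed counts was 0.456 (0.265 to 0.758). The injury effects themselves differed by -1.14 (SE 1.10, 95% interval -3.46 to 1.17, adjusted p = 0.998 by edgeR), so the data did not show a weaker response in the mutant and did not set a narrow bound on one. Without Mettl14cKO naive library 1 that difference was 0.11, of opposite sign, and it was not called under any setting tried. Atf3, the marker of axotomised neurons, moved the same way: it reached 243 to 505 CPM in lesioned wild type and 163 to 197 CPM in lesioned Mettl14cKO, a log2 difference of -1.08 (SE 0.22, adjusted p = 0.0202 by edgeR). That call ended without lesioned wild-type library 1 or 3 or lesioned Mettl14cKO library 1 (adjusted p 0.0635 to 0.140). The part of the Atf3 difference in that of Ankrd1 was not tested.

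Markers of skeletal muscle, a tissue rich in Ankrd1 when injured, were low in all groups. Their 6 genes summed to 7.15 to 10.4 CPM in wild type naive, 7.20 to 13.8 in wild type SNLD1, 5.41 to 9.12 in Mettl14cKO naive and 8.56 to 10.1 in Mettl14cKO SNLD1, with overlap between naive and SNLD1 in both genotypes. Of the 3 muscle genes that passed the filter, 2 had a positive log2 lesion effect in wild type and 3 in Mettl14cKO, with medians of 0.22 and 0.33 and none called by edgeR. Their part in the Ankrd1 rise was not tested.

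The MeRIP-seq input libraries gave another reading of the lesion effect on Ankrd1 in wild type. Naive inputs held 1 and 0 reads (0.13 and 0.00 CPM, where a count of 0 allows up to 0.304 CPM), and SNLD1 inputs held 7 and 41 reads (8.32 and 2.52 CPM). The ratio of summed counts was 49.4 with a counting interval of 8.46 to 1993, and the groups did not overlap. edgeR's fit gave 6.05 on the log2 scale (SE 2.66, unadjusted p = 0.0275, adjusted p = 1). In these libraries 0% of 14705 genes were called in either direction by edgeR, with 126 under an unadjusted p of 0.05, and DESeq2 called 1. Ankrd1 and Yap1 stood above their naive inputs in both lesioned inputs (6.17% of all genes) and Wwtr1 below (13.8% of all genes).

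The 5 genes whose course over the 12 RNA-seq libraries was nearest to that of Ankrd1 were Ugdh, Serpinb1c, Acvr1, Gabra5 and Msh6. Nearness was the root-mean-square difference of log2(CPM + 0.5) after each gene's own mean was subtracted, 0.29 to 0.34 for these 5 among 13290 genes, all measured in the same libraries. Ugdh makes UDP-glucuronic acid, the precursor of matrix glycosaminoglycans, and went from 65.9 ± 5.21 to 275 ± 30.01 CPM in wild type and from 74.6 ± 7.58 to 209 ± 47.7 CPM in Mettl14cKO (SD, n = 3). Acvr1, a type I receptor for bone morphogenetic proteins, went from 12.6 ± 3.39 to 35.6 ± 3.16 CPM and from 9.96 ± 2.12 to 20.3 ± 1.64 CPM in the same order. Gabra5, a GABA receptor subunit, went from 8.57 ± 0.615 to 33.5 ± 0.629 CPM and from 11.4 ± 1.93 to 25.6 ± 0.808 CPM. No other member was near by this measure: Yap1, the closest, ranked 1054. The measure is not scaled for the size of a change, and the added 0.5 CPM shrinks steps from low levels like Ankrd1's. Atf3, whose lesion rise was larger, ranked 13228 among the 13290 genes, so a far rank does not mean an opposite direction.

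**Figure D2:**
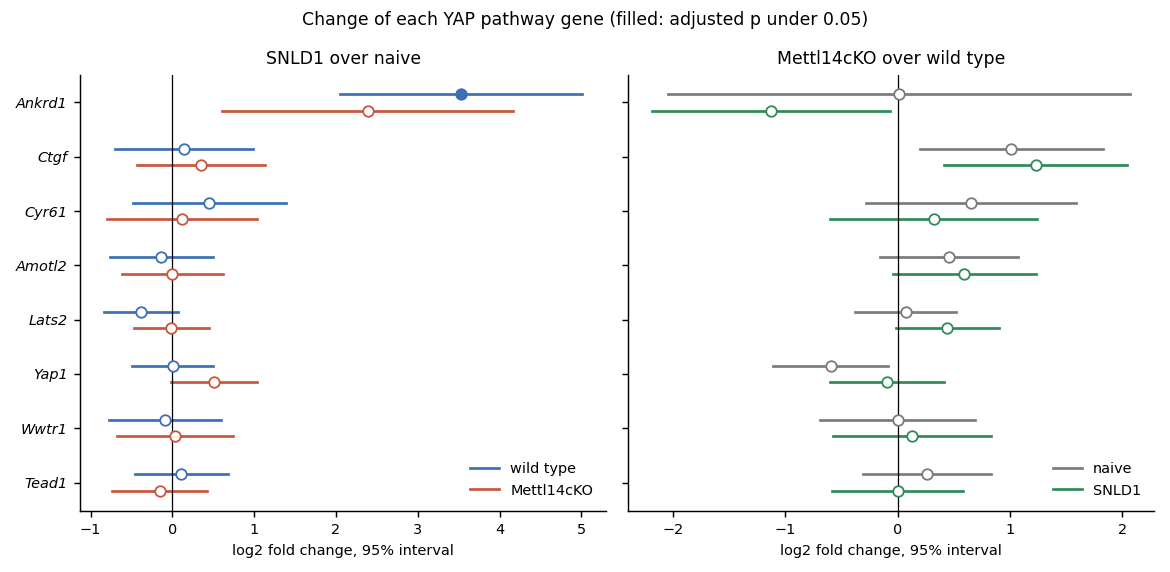
log2 fold changes with 95% intervals for the 8 genes. Left, SNLD1 over naive in wild type (blue) and Mettl14cKO (red); right, Mettl14cKO over wild type in naive (grey) and SNLD1 (green) ganglia. Filled circles passed an adjusted p under 0.05, here the wild-type injury effect of Ankrd1, at 3.53, alone.

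The other 7 members were not called in either lesion comparison, although Yap1 in Mettl14cKO stood above naive without overlap. Their injury effects lay between -0.38 (Lats2) and 0.45 (Cyr61) in wild type, with adjusted p from 0.812 up and interval bounds between -0.84 and 1.38. In Mettl14cKO they lay between -0.15 (Tead1) and 0.51 (Yap1), with bounds between -0.80 and 1.14. In Mettl14cKO none of the 8 was called by edgeR, with 1 (Ankrd1) under an unadjusted p of 0.05 and none called by DESeq2, against 0.685% of all genes called in either direction. None of the 8 differed between genotypes in its injury effect by edgeR or DESeq2, none had an unadjusted p under 0.05, and 0% of genes tested were called by edgeR in that comparison (492 under an unadjusted p of 0.05, and 3 called by DESeq2).

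Ctgf (Ccn2), a secreted matricellular protein and the reference YAP target, differed by genotype when both conditions were averaged, and was not called for the lesion. Wild-type levels were 3.48, 2.73 and 3.50 CPM in naive ganglia and 2.61, 2.86 and 5.25 CPM at SNLD1. Mettl14cKO levels were 3.44, 11.17 and 5.46 CPM in naive ganglia and 7.28, 11.41 and 6.59 CPM at SNLD1. All lesioned mutant libraries were above the lesioned wild-type ones, and naive library 1 of the mutant lay within the wild-type range. Averaged over conditions Ctgf rose by 1.12 on the log2 scale in Mettl14cKO (SE 0.27, 95% interval 0.55 to 1.70, adjusted p = 0.0308 by edgeR), 1 of 8 members called higher against 2.04% of all genes. Within each condition it was not called: 1.01 in naive ganglia (SE 0.39, adjusted p = 0.520 by edgeR) and 1.23 at SNLD1 (SE 0.39, adjusted p = 0.127). Without the filter on low counts the SNLD1 difference was called, at 1.22 with an adjusted p of 0.0104.

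The averaged call of Ctgf was narrow. It ended, with adjusted p between 0.0528 and 0.107 and changes between 0.84 and 1.17, when any of these libraries was left out: wild type naive 1, 2 or 3, wild type SNLD1 1 or 2, Mettl14cKO naive 2, or Mettl14cKO SNLD1 1 or 2. Some fibroblast markers moved with genotype as well. The sum of 6 fibroblast genes was 1745 to 1971 CPM in wild type naive and 1720 to 2184 CPM in wild type SNLD1, against 1988 to 3418 CPM in Mettl14cKO naive and 2631 to 4289 CPM in Mettl14cKO SNLD1. Averaged over conditions 3 of 6 were higher in Mettl14cKO, 2 of them called by edgeR against 2.04% of all genes, and the median was 0.00. The called ones were Dcn, which encodes decorin (log2 0.74, adjusted p = 0.00609 by edgeR), and Pdgfra, a fibroblast receptor (1.03, adjusted p = 0.00174). The collagen genes Col1a1, Col1a2 and Col3a1 had values of -0.54, -0.23 and -0.67 and were not called. Among the naive mutant libraries, library 1 had the highest marker sum, 3418 CPM, with the lowest Ctgf, and library 2 the lowest sum, 1988 CPM, with the highest Ctgf. Among the lesioned mutant libraries the order was the same for both: sums of 2631, 3295 and 4289 CPM in libraries 3, 1 and 2 went with Ctgf at 6.59, 7.28 and 11.41 CPM. Other marker lists were set beside these. Averaged over conditions 4 of 5 endothelial genes (median 0.45) and 4 of 5 macrophage genes (median 0.38) were higher in Mettl14cKO, with 0 called by edgeR. In the other direction, 0 of 4 neutrophil genes (median -1.03) and 1 of 8 sensory neuron genes (median -0.20) were higher. Of 5 satellite glia genes 2 were higher (median -0.03). In the sensory neuron and satellite glia lists 1 gene each was called lower by edgeR, against 1.29% of all genes. The satellite glia genes summed to 2053 to 2132 CPM in lesioned Mettl14cKO and 2450 to 3911 CPM in lesioned wild type, without overlap, while the naive sums overlapped. The part of any of these markers in the Ctgf difference was not tested.

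Cyr61 (Ccn1), the matricellular relative of Ctgf, was at 2.998, 1.09 and 0.76 CPM in wild type naive and 2.15, 2.29 and 2.20 CPM in wild type SNLD1. In Mettl14cKO it was at 1.79, 3.14 and 2.73 CPM in naive ganglia and 2.66, 2.82 and 2.81 CPM after the lesion. The lesioned mutant libraries stood above the lesioned wild-type ones by a small step, while the naive libraries of the genotypes overlapped. Cyr61 and Wwtr1 lie on chromosome 3 with Mettl14, 22.3 and 65.8 Mb from it, so for these 2 genes an allele carried along with the deleted one and the deletion cannot be told apart.

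Amotl2, the angiomotin-family inhibitor, was at 3.97, 4.09 and 4.79 CPM in wild type naive and 2.15, 5.26 and 4.15 CPM at SNLD1. Mettl14cKO held 5.98, 6.46 and 5.34 CPM in naive ganglia and 5.15, 7.05 and 5.47 CPM at SNLD1. The naive mutant libraries were all above the naive wild-type ones, and the lesioned ones overlapped. Averaged over conditions the difference was 0.53 on the log2 scale (SE 0.21, unadjusted p = 0.0224), which did not pass adjustment (adjusted p = 0.200 by edgeR). At SNLD1 it was 0.59 (SE 0.30, adjusted p = 0.389 by edgeR).

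Lats2, the kinase that phosphorylates YAP, was at 13.64, 10.50 and 11.63 CPM in wild type naive and 8.12, 8.46 and 10.86 CPM at SNLD1. In Mettl14cKO it was at 14.50, 9.43 and 13.66 CPM in naive ganglia and 12.08, 13.11 and 12.20 CPM after the lesion. The lesioned mutant libraries were all above the lesioned wild-type ones, a log2 difference of 0.44 (SE 0.22, 95% interval -0.02 to 0.91, adjusted p = 0.376 by edgeR). The wild-type lesion effect was -0.38 (SE 0.22, adjusted p = 0.812 by edgeR), with overlapping groups.

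Yap1 itself was at 7.64, 6.82 and 7.60 CPM in wild type naive and 6.29, 8.24 and 7.57 CPM at SNLD1. Mettl14cKO naive ganglia held less, 5.83, 4.02 and 4.72 CPM, and the lesioned mutant 6.39, 6.06 and 8.28 CPM. The naive mutant was thus below all other groups without overlap. The naive genotype difference was -0.60 on the log2 scale (SE 0.24, 95% interval -1.11 to -0.08), with an unadjusted p of 0.0246 and an adjusted p of 0.576 by edgeR. The lesion effect in the mutant was 0.51 (SE 0.25, adjusted p = 0.492 by edgeR), and these 2 comparisons share the naive mutant libraries. Averaged over conditions the genotype difference was -0.35 (SE 0.17, adjusted p = 0.318 by edgeR).

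Wwtr1, the gene of TAZ, was at 9.87, 7.23 and 7.07 CPM in wild type naive, 6.74, 9.72 and 6.10 CPM in wild type SNLD1, 12.55, 5.94 and 5.71 CPM in Mettl14cKO naive and 6.04, 11.84 and 6.73 CPM in Mettl14cKO SNLD1. Each group had 1 library well above the other two and the groups overlapped throughout. Tead1, the 1 TEAD factor that passed the filter in RNA-seq, was at 10.45, 6.95 and 7.37 CPM in wild type naive, 6.44, 10.18 and 10.01 CPM in wild type SNLD1, 13.75, 7.16 and 8.82 CPM in Mettl14cKO naive and 7.99, 10.15 and 8.56 CPM in Mettl14cKO SNLD1. Its groups overlapped as well. Neither Wwtr1 nor Tead1 was called in any comparison under any setting tried.

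Read against all genes, the genotype comparisons of single conditions gave no calls among the 8. In naive ganglia none was called by edgeR or DESeq2, with 2 under an unadjusted p of 0.05, against 0.286% of all genes called in either direction. Amotl2 was entirely above (6.11% of all genes) and Yap1 entirely below (4.65%) wild type. At SNLD1 none was called by edgeR or DESeq2, with 2 under an unadjusted p of 0.05 by edgeR, against 1.46% of all genes. Ctgf, Cyr61 and Lats2 were entirely above (9.66% of all genes) and Ankrd1 entirely below (10.3%). Higher than naive in the lesioned mutant were Ankrd1 and Yap1 without overlap, against 8.32% of all genes.

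Few genes of the wider pathway were called. Of 21 Hippo kinases, adaptors and upstream regulators, 19 were tested and none was called by edgeR in any of the 7 RNA-seq comparisons, in which between 0% and 3.33% of all genes were called in either direction. Between 0 and 5 had an unadjusted p under 0.05, and DESeq2 called 1, Limd1, an inhibitor of LATS kinases, in 2 of them. Limd1 was at 11.1 to 12.9 CPM in wild type naive and 17.3 to 23.6 CPM at SNLD1, a log2 change of 0.84 (SE 0.21, adjusted p = 0.0749 by edgeR). Frmd6, an upstream scaffold, was at 12.3 to 16.9 CPM in naive and 20.0 to 26.0 CPM in lesioned Mettl14cKO (log2 0.66, SE 0.21, adjusted p = 0.215). Taok1, an upstream kinase, was at 205 to 238 CPM in lesioned wild type and 151 to 172 CPM in lesioned Mettl14cKO (log2 -0.45, SE 0.14, adjusted p = 0.130). Amotl1, a relative of Amotl2, was at 16.8 to 19.2 CPM in naive wild type and 24.2 to 30.3 CPM in naive Mettl14cKO (log2 0.52, SE 0.18, adjusted p = 0.417). The list's median injury change was 0.01 in wild type and -0.16 in Mettl14cKO, against -0.01 and 0.01 over all genes. Of 6 other TEAD and Vgll genes 2 were tested, Vgll3 and Vgll4, and of 6 other CCN and muscle ankyrin repeat genes 2, one of them Wisp1. None of these 4 was called by either tool, and 1 of them, Wisp1, had an unadjusted p under 0.05.

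Of 17 other YAP and TAZ target genes, 15 were tested. After the lesion 3 rose in wild type, where 0.948% of all genes were called higher, and 2 in Mettl14cKO, where 0.624% were, and the list's median change was -0.05 and 0.08, against -0.01 and 0.01 over all genes. Gadd45a, a DNA damage and growth arrest gene that other stress pathways also induce, rose in both genotypes. It went from 4.23, 7.16 and 8.44 CPM, in rising order, to 37.3, 65.3 and 73.9 CPM in wild type (log2 3.12, SE 0.30, adjusted p = 9.71e-06 by edgeR) and from 6.58, 6.63 and 8.69 to 34.7, 51.1 and 73.4 CPM in Mettl14cKO (log2 2.85, SE 0.31, adjusted p = 7.08e-05). Nt5e, the ecto-enzyme CD73 that makes adenosine, rose by 0.88 on the log2 scale in wild type (SE 0.20, adjusted p = 0.0422 by edgeR) and by 1.18 in Mettl14cKO (SE 0.20, adjusted p = 0.00498). The wild-type call of Nt5e ended without naive library 1 or 3 or any SNLD1 library (adjusted p 0.0852 to 0.254).

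Igfbp3, which binds insulin-like growth factors, rose in wild type, in rising order from 1.98, 2.9999 and 3.87 to 5.60, 8.74 and 13.8 CPM (log2 1.68, SE 0.37, adjusted p = 0.0366 by edgeR). In Mettl14cKO it was at 1.64, 2.62 and 3.97 CPM in naive ganglia and 1.96, 2.13 and 3.38 CPM at SNLD1, where it was lower than in wild type (log2 -1.90, SE 0.40, adjusted p = 0.0226), 1 of 15 called lower against 0.512% of all genes. Its injury effects differed by -1.83 (SE 0.58, unadjusted p = 0.00523, adjusted p = 0.998), so the difference itself did not pass. The wild-type call ended without any naive library, without SNLD1 library 1 or 3 (adjusted p 0.0766 to 0.322), with the replicate number as a block (0.0558) and when only the 6 libraries compared were fitted (0.0557). The genotype call ended without library 1 or 3 of either lesioned group (adjusted p 0.0569 to 0.150). Axl, a receptor tyrosine kinase, was higher in Mettl14cKO averaged over conditions (log2 0.54, SE 0.14, adjusted p = 0.0414 by edgeR), and that call ended when any of 11 of the 12 libraries, all but wild type SNLD1 2, was left out (adjusted p 0.0510 to 0.114).

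**Figure D3:**
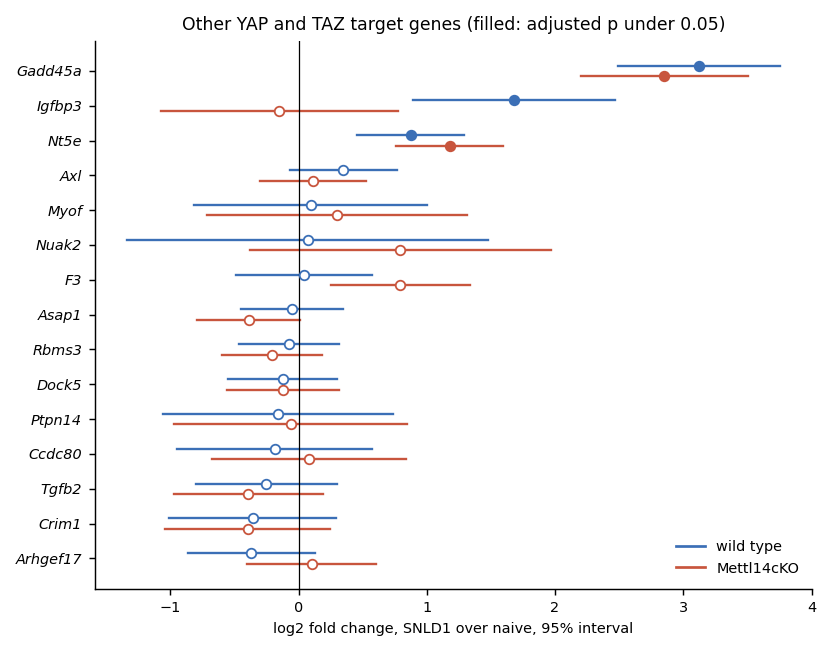
log2 fold change with 95% interval, SNLD1 over naive, for the 15 other YAP and TAZ target genes tested, in wild type (blue) and Mettl14cKO (red), ordered by the wild-type value. Filled circles passed an adjusted p under 0.05: Gadd45a and Nt5e in both genotypes and Igfbp3 in wild type.

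Targets of SRF and its coactivator MRTF, which answer to actin dynamics and overlap in use with YAP targets, were set beside them. Of 11 genes, 10 were tested. Tpm4, a tropomyosin, rose after the lesion in wild type by 0.71 on the log2 scale (SE 0.15, adjusted p = 0.0288 by edgeR) and averaged over genotypes by 0.64 (adjusted p = 0.00223). The wild-type call ended without library 1 or 3 of either group (adjusted p 0.0583 to 0.193) and when only the 6 libraries were fitted (0.0899). Tagln, a smooth muscle actin-binding protein, was, in rising order, at 6.90, 10.98 and 14.98 CPM in lesioned wild type and 27.4, 32.0 and 41.6 CPM in lesioned Mettl14cKO (log2 1.60, SE 0.24, adjusted p = 0.00316 by edgeR), 1 of 10 called higher against 0.948% of all genes. It was higher also averaged over conditions, by 1.08 (SE 0.17, adjusted p = 0.00184). Mural cell markers, 5 genes, summed to 163 to 261 CPM in lesioned wild type and 128 to 203 CPM in lesioned Mettl14cKO, while 3 of the 4 tested mural genes had positive log2 differences there (median 0.20, none called by edgeR). The 6 fibroblast genes summed to 1720 to 2184 CPM in lesioned wild type and 2631 to 4289 CPM in lesioned Mettl14cKO, without overlap. Of these 6 genes 3 were higher there, 2 of them called by edgeR against 0.948% of all genes, and the median was -0.06. The part of the mural and fibroblast markers in the Tagln difference was not tested.

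In MeRIP-seq, pulldown levels are relative to the library, so an IP over input difference is relative to the other genes and not a stoichiometry. Cyr61 was above input in every IP library. Naive inputs held 3.09 and 1.72 CPM and naive IP libraries 15.4, 23.6 and 6.60 CPM. SNLD1 inputs held 4.75 and 3.07 CPM and SNLD1 IP libraries 17.97, 20.4 and 11.9 CPM. The log2 enrichment was 2.63 in naive ganglia (SE 0.95, unadjusted p = 0.0222, adjusted p = 0.710 by edgeR) and 2.15 at SNLD1 (SE 0.98, adjusted p = 0.791).

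Lats2 ranged widely between pulldown libraries. Its inputs were at 10.7 and 24.3 CPM in naive and 5.94 and 15.96 CPM in lesioned ganglia. Its IP libraries were at 134, 57.5 and 22.8 CPM in naive and 129, 45.8 and 17.9 CPM in lesioned ganglia, with library 1 high and library 3 low in both conditions. The log2 enrichment was 2.03 in naive ganglia (SE 0.96, adjusted p = 0.710 by edgeR), with overlap, and 2.50 at SNLD1 (SE 0.98, unadjusted p = 0.0323, adjusted p = 0.791), without overlap.

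Amotl2 was at 3.86 and 9.21 CPM in naive inputs, 37.3, 3.77 and 6.38 CPM in naive IP libraries, 3.57 and 5.65 CPM in SNLD1 inputs and 41.7, 15.3 and 16.2 CPM in SNLD1 IP libraries. Its SNLD1 enrichment was 2.35 on the log2 scale (SE 1.10, adjusted p = 0.791 by edgeR), without overlap. Yap1 was at 4.25 and 1.82 CPM in naive inputs and 17.3, 6.60 and 14.3 CPM in naive IP libraries, also without overlap. After the lesion Yap1 was at 4.76 and 8.96 CPM in input and 22.9, 0.00 and 11.97 CPM in IP. The 0 is the small SNLD1 IP library 2, where a count of 0 allows up to 1.70 CPM.

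That library also held no read of Ankrd1, Wwtr1 or Tead1. Ankrd1 had 53, 0 and 45 reads in the SNLD1 IP libraries and 1, 5 and 0 in the naive ones, a ratio of summed counts of 17.97 (7.97 to 50.2). Pulldown libraries 1 and 3 held more Ankrd1 after the lesion, and the small library 2 went the other way, with 4.71 CPM in naive and 0 reads at SNLD1, which allows up to 1.70 CPM. Its IP over input difference at SNLD1 was not resolved (adjusted p = 0.988 by edgeR). Wwtr1 was at 7.02, 0.00 and 6.38 CPM in naive IP libraries, all below the inputs at 8.63 and 10.8 CPM, and the 0 of naive IP 2 allows up to 2.83 CPM. Tead1 was at 29.9, 0.94 and 19.8 CPM in naive IP libraries and at 8.63 and 13.1 CPM in the inputs. Ctgf was at 6.79, 9.43 and 4.56 CPM in naive IP libraries and at 4.64 and 0.61 CPM in the inputs.

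None of the 8 genes was called in either IP over input comparison by edgeR or DESeq2, with 1 in each under an unadjusted p of 0.05 by edgeR and 3 by DESeq2. Nor was any other gene by edgeR: 0% of 14705 genes were called in naive ganglia (915 under an unadjusted p of 0.05, and 5 called by DESeq2) and 0% at SNLD1 (608 and 0). The change of enrichment with injury gave 0% as well (30 and 0). With the replicate number as a block, edgeR called 1078 genes in naive ganglia and 936 at SNLD1, of which 48 and 44 were higher in the pulldown, and none of the 8 was among them. That block ties pulldown to input libraries of the same number, and pulldown library 3 has no input. Deviations of same-numbered input and pulldown libraries of a condition correlated at -0.29 to -0.02, so the block is not borne out for this comparison. In the naive comparison Cyr61 and Yap1 stood entirely above input (12.7% of all genes) and Wwtr1 entirely below (16.5%). At SNLD1 Cyr61, Amotl2 and Lats2 stood entirely above (10.3% of all genes).

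**Figure D4:**
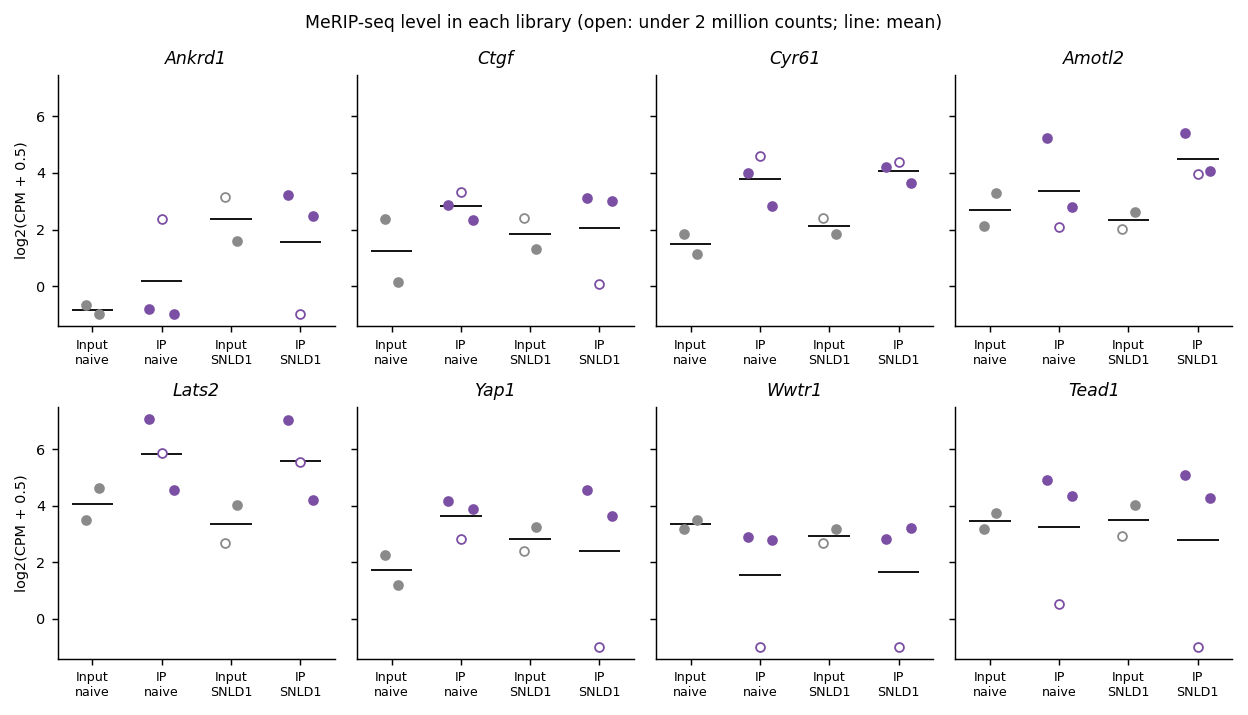
MeRIP-seq level of the 8 genes in wild-type input (grey) and m6A pulldown (purple) libraries, as log2(CPM + 0.5). Points are libraries, open for the 3 smallest libraries, and lines are group means; Cyr61 pulldown points all lie above its inputs, and open points account for the lowest pulldown values of Ankrd1 at SNLD1, Yap1, Wwtr1 and Tead1.

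The miCLIP lists placed m6A in 3 of the 8 genes. The naive list held 14446 sites and the SNL list 18677, and a site was assigned to a gene when it lay in its span on its strand. Lats2 (chr14:57689662-57746212, minus strand) had 6 sites in each list, at 11 distinct bases. At least 6 sites were held by 4.38% of the 10559 tested genes with a known strand in the naive list and by 6.1% in the SNL list. The letters printed next start 2 bases before the modified A, which is the third letter. Every site of both lists carries GAC or AAC, the known preference of the writer. Finding these letters at the member sites is therefore no result about the members.

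The 1 Lats2 base in both lists was position 57734086 of chromosome 14, with TGACA, mutated in 2 of 4 reads in the naive list and in 1 of 5 in the SNL list. These shares, 50% (exact 95% interval 6.76 to 93.2) and 20% (0.505 to 71.6), cannot be told apart at this depth. A neighbouring naive site, GGACC at 57734097, lies in the same stretch 12115 bases from the gene start. The other 9 entries of Lats2 fell farther along, between 43281 and 54881 bases from the start of a span of 56551 bases. In the naive list these were AGACT at 57700417, GGACT at 57697161, TGACC at 57697072 and GGACA at 57696159. In the SNL list they were AGACC at 57702931, TGACT at 57700006, AGACA at 57699502, AAACT at 57697208 and GGACT at 57691331. Exons were not annotated here, so whether these bases lie in coding or untranslated sequence is not given.

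Yap1 had 1 site in each list at different bases of chromosome 9, TAACT at 7934169 in the naive list, 2170 bases before the end of the gene, and GAACC at 8004431 in the SNL list, 207 bases from its start. Amotl2 had none in the naive list and 2 in the SNL list, GGACC at 102723680 and GAACT at 102728405 of chromosome 9. Ankrd1, Ctgf, Cyr61, Wwtr1 and Tead1 had none in either list. At least 1 site was held by 31.3% of the 10559 tested genes with a known strand in the naive list and by 36.4% in the SNL list. The strand of Ctgf and Tead1 was not known here, and neither had a site on either strand. The 2 and 3 members with a site are too few to be told apart from these shares. Of the 16 entries 15 rested on a single mutated read, over 2 to 5 reads, much as among all sites, 90.2% of which in the naive list and 89.7% in the SNL list had 1 mutated read. With 1 library a condition there was no test, and a site in 1 list alone is not evidence of a change. Of the 15 distinct bases 11 carried GAC and 4 AAC. Of all sites GAC made up 83.5% in the naive and 82.7% in the SNL list, and AAC the rest, 16.5% and 17.3%.

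**Figure D5:**
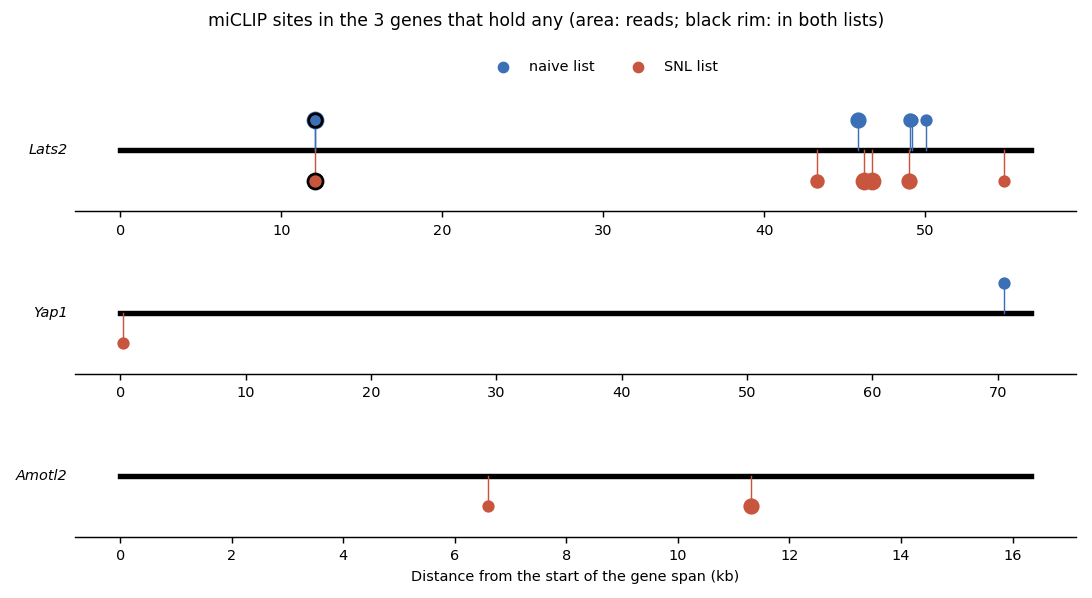
miCLIP sites in Lats2, Yap1 and Amotl2 by distance from the start of the gene span in kb, naive list above the line in blue and SNL list below in red. Marker area grows with the reads over the base, and the black rim marks the 1 Lats2 base found in both lists; 9 of its 12 entries lie toward the end of the gene.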

How the data were processed

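The authors deposited 1 table of RNA-seq and 1 of MeRIP-seq raw counts per gene symbol, which were checked to be whole numbers. The miCLIP lists deposited by the authors hold a score per site that equals mutated reads divided by reads over the base. The submitters' processing notes name Trimmomatic, STAR, DESeq2 and mm10. On their roles and versions, on the counting tool and on the site-calling tool, nothing is given in the sources used here. Extraction used Trizol, poly(A) selection and the Smart-seq2 protocol, per the labels.

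Counts were fitted in R 4.3.3 with edgeR 4.0.16: filterByExpr kept 13291 of 24421 RNA-seq symbols and 14705 of 24411 MeRIP-seq symbols, libraries were scaled by TMM, and glmQLFit and glmQLFTest were run on all 12 RNA-seq libraries as 4 groups, and separately on all 10 MeRIP-seq ones in their 4 groups. Tests are two-sided and p-values are adjusted by Benjamini-Hochberg over all genes of a comparison, called under 0.05. The pipeline was run on simulated data in which only genes expressed above the level of Ankrd1 were changed. The simulated MeRIP-seq changes were larger than any IP over input difference of a member. The simulation therefore does not give the power for Ankrd1 or for the MeRIP-seq differences. DESeq2 1.42.0 and the other alternatives are in the closing section. No label says whether replicates came from separate mice, so a p-value here measures the spread between libraries, which may be technical. Intervals of ratios and shares cover counting error only, and a count of 0 is taken to allow 3 counts.

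Replicate numbers did not pair the RNA-seq libraries throughout, since the deviations of same-numbered libraries correlated at -0.06 to 0.57. The highest was between naive and SNLD1 library 2 of wild type (0.57), followed by library 3 of Mettl14cKO (0.35). Differently numbered libraries reached 0.45. A pairing of some RNA-seq libraries is thus not excluded. In MeRIP-seq the replicate numbers did pair naive with SNLD1 pulldown libraries, with correlations of 0.47, 0.68 and 0.73.

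The 8 genes and the lists were chosen with earlier results of these data known. Named from the lists were genes called in any RNA-seq comparison, else those of smallest p in each comparison; beside them the 5 genes nearest Ankrd1, Atf3 and Mettl14. Promoter sequences are from RefSeq (GRCm38.p6). Python 3.11.15, numpy 2.4.6, pandas 2.3.3, scipy 1.17.1 and matplotlib 3.10.9 were used for sites, sequences and figures.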

Additional observations from a re-analysis of the deposited data

How the results depend on the processing

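The alternatives were size factors in place of TMM, no filter on low counts, DESeq2, fits of only the 6 libraries compared, the replicate number as a block, and each library left out in turn. Chosen after the data were seen were MeRIP-seq fits without the 3 smallest libraries and a block within pulldown and within input libraries. The injury effect of Ankrd1 kept its direction under each alternative fitted. In Mettl14cKO it was not fitted with only the 6 libraries compared, where the filter removed the gene, and the averaged effects use all 12 libraries. Leaving out 1 library gave 3.33 to 3.90 in wild type, 1.71 to 3.64 in Mettl14cKO and 2.61 to 3.59 averaged, and the wild-type call ended without naive library 3 (3.33). The averaged genotype effect of Ctgf spanned 0.84 to 1.32. The difference between the injury effects of Ankrd1 spanned -1.81 to 0.11. No member site had 3 or more mutated reads, so that minimum left 0 of the 16 miCLIP entries. With the replicate block Ankrd1 changed by 3.50 in wild type and 2.94 averaged, and Ctgf by 1.07. The block ended the wild-type call of Igfbp3, changed no other call of a named gene, and moved the counts of all genes in the MeRIP-seq IP over input comparisons from 0 to 1078 and 936. Of 67 member values not given singly, 43 changed sign in at least 1 setting and 0 were called in any; among RNA-seq values the largest to change sign was 0.33 in size. Counts over all genes depended on the tool: edgeR called 126 higher after the lesion in wild type and DESeq2 190, 91 against 189 in either direction in Mettl14cKO, 38 against 77 for genotype in naive and 194 against 416 at SNLD1. Without the filter those 4 counts were 232, 281, 191 and 570, with 425 higher for the averaged injury effect (268 with it), 490 for the averaged genotype effect (271) and 24 for the difference between injury effects. Leaving out 1 library gave 60 to 130, 48 to 116, 12 to 44 and 37 to 262. Ankrd1 rests on 1 to 3 reads in naive wild-type libraries, which limits its fold.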
